A study of Mus musculus with 24 samples.

Results

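Krüppel-like factors (KLFs) are zinc-finger transcription factors that bind GC-rich and CACCC-type elements, and several of them act in a relay that turns preadipocytes into fat cells. Klf4 and Klf5 are known as early activators that work on Cebpb and Pparg, whereas Klf2 and Klf3 are known to restrain the same programme. Klf6, Klf9 and Klf15 act with or after the early activators, and Klf15 is also known for raising the insulin-responsive glucose transporter Slc2a4.

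The transcripts described here are those of 10 KLF genes: Klf2, Klf3, Klf4, Klf5, Klf6, Klf9, Klf10, Klf11, Klf13 and Klf15. They were taken by symbol from a table of 52089 gene symbols. Each gene was represented by the RefSeq mRNA entry with the highest mean RPKM (reads scaled by entry length and by the mapped reads of the library) over all 24 libraries. The rule that picks them uses names alone, although it was set with earlier results of these data known. All 10 were found, in 50 entries of the 168326 listed.

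The libraries came from primary cells of the stromal vascular fraction of inguinal white fat of 129SvEv mice, with no transgene and no other genetic change named in the sources used here. Every group had received the same induction cocktail, which holds dexamethasone, IBMX, indomethacin, insulin, T3 and rosiglitazone, and then insulin, T3 and rosiglitazone, which drive brite (heat-producing) differentiation. After 1 day of differentiation the cells were transfected with 50 nM of an LNA gapmer, an antisense oligonucleotide directed at transcript 1 of the long noncoding RNA Ctcflos (KD), or with a nontargeting gapmer (NC), and RNA was taken 24 h or 72 h later. Knockdown and control at each time had 6 libraries, named KD 24 h, NC 24 h, NC 72 h and KD 72 h here, so all cells carried an oligonucleotide and 1 targeting sequence stood for the knockdown. The sources call the 6 libraries of a group biological replicates but name no animal or culture for each, so p-values measure the spread between these libraries.

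Libraries held a median of 4009998 mapped reads. KD 24 h replicate 6 was the shallowest with 1391832, and NC 72 h replicate 6 the deepest as recovered, with 5926375. Odd numbers made up just 19.9% of the counts recovered for NC 72 h replicate 6, while elsewhere this share ran from 56.2% to 58.5%. Its recovered depth and reads are therefore uncertain, and the cause was not tested. Reads summed over NC 72 h include this library, and an alternative setting left it out. The floor of a count of 0 covers counting error only, and the 95% intervals given below come from the spread between libraries in limma. Because NC 72 h replicates 2 and 3 differed by less than the sampling noise, their mean entered as 1 sample (n = 5 for NC 72 h). After subtraction of group means the libraries fell into 2 clusters, a larger one with 16 libraries and a smaller one with 8. The smaller one was made up of KD 24 h replicates 3 and 4, NC 24 h replicates 5 and 6, KD 72 h replicates 5 and 6 and NC 72 h replicates 4 and 5. Both clusters were drawn from the same libraries that are tested. Adjusted p-values within a cluster can therefore come out too small and are given as description. The Ctcflos transcript listed as ENSMUST00000144256 lay between 0.00 and 0.96 RPKM in KD 24 h and 0.16 and 0.79 in NC 24 h, with 8 and 12 reads summed over each group. At 72 h it lay between 0.00 and 0.49 in KD and 0.00 and 2.32 in NC, with 3 and 41 reads. No test was run on so few reads, and a loss of the target was not detectable at the depth of the 24 h libraries. Adipocyte markers were abundant in every library, at a summed RPKM of 28126 to 54502. In bulk RNA, fewer cells of a type and less RNA per cell cannot be told apart.

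In the cells given the Ctcflos gapmer, Klf4 and Klf6 transcripts were higher and Klf13 transcripts were lower than in the control at both 24 h and 72 h. Klf11 was higher at 24 h and Klf10 was lower at 72 h, and neither passed at the other time. The calls of Klf6 and Klf10 at 72 h and of Klf11 at 24 h lay just past the threshold (adjusted p = 0.045, 0.043 and 0.044, limma), and fewer than 10 of the alternative settings kept each of them. Of the 9 members that entered the 24 h fit, 3 rose and 1 fell at an adjusted p under 0.05 in limma, beside 22.7% of all 52005 entries tested (11.1% higher and the rest lower). At 72 h, 2 rose and 2 fell of the 9 tested, beside 22.3% of 54446 entries (10.3% higher and the rest lower). Of the calls at 72 h, 46.2% were higher after scaling and 80.9% on the deposited scale, whose median log2 fold change lay 0.24 above the scaled one. The median log2 fold change of the members tested was 0.18 at 24 h and -0.21 at 72 h, against -0.01 and 0.01 over all entries. The member left out of both fits, Klf5, had too few reads in the control libraries. The members thus moved in both directions.

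Sequences upstream of the RefSeq start are shown for Klf4, Klf6 and Klf13 because these 3 members passed the test with the same sign at both times. Each run gives the 250 bases before the start, 5′ to 3′ on the gene's strand, from RefSeq on GRCm38.p6, in lower case. Capitals mark matches, on either strand, to CACCC (a KLF-type element), CCGCCC (a GC box), CCAAT (a box for NF-Y and related factors), TGACG (the core of a cAMP response element) and TATAAA. Klf4 lies on the minus strand at chr4:55532476-55532725, Klf6 on the plus strand at chr13:5861239-5861488 and Klf13 on the minus strand at chr7:63938916-63939165.
Klf4: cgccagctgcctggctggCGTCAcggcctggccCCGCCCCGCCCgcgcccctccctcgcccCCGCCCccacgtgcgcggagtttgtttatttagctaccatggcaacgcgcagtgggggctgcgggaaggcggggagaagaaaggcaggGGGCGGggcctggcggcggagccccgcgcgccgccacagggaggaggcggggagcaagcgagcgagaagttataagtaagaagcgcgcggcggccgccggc
Klf6: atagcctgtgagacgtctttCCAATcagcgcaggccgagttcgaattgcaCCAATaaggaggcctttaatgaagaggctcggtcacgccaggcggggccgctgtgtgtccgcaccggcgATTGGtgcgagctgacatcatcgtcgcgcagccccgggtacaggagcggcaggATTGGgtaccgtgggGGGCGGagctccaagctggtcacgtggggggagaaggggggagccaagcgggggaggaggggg
Klf13: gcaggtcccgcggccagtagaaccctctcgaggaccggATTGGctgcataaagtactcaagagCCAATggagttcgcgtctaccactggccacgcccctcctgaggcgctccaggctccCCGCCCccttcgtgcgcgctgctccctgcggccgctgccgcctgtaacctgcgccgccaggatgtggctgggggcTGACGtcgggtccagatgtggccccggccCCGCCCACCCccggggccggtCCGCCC

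The Klf4 stretch held 4 matches to CCGCCC and 1 to TGACG. In Klf6 there were 4 matches to CCAAT and 1 to CCGCCC. Klf13 held 3 matches to CCGCCC, 2 to CCAAT, 1 to TGACG and 1 to CACCC, the last of which overlaps a CCGCCC match. A promoter was listed for 8 of the 10 members (all but Klf5 and Klf10). Among these 8, CCGCCC was present in 7, against 32.7% of all 32851 promoters of the same length, and CACCC in 5, against 52.0%. CCAAT was present in 5 of the 8, against 33.8%, and TGACG in 5, against 17.8%. TATAAA was found in 0 of the 8, against 12.4% of all promoters. The members' stretches had a GC content of 59.6% to 78.4%, and the median of all promoters was 52.4%, so the shares of GC-rich motifs are not compared at equal base composition. A match describes these letters and is not a binding site.

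Klf2, Klf4, Klf5 and Klf6 belong to the branch of the family that mainly activates transcription. Klf4 (NM_010637) is induced within hours of an adipogenic stimulus and is known to act on Cebpb. In KD 24 h its RPKM was 15.76, 14.29, 3.98, 2.88, 10.44 and 22.42 in replicates 1 to 6, and in NC 24 h it was 1.50, 2.48, 1.58, 2.28, 2.14 and 2.30. Every KD library lay above every NC library, and the KD libraries themselves spread widely, the 2 of the smaller cluster being the lowest. In KD 72 h the values were 9.90, 7.23, 6.25, 9.13, 7.38 and 5.55, and in NC 72 h they were 1.92, 1.63, 1.76, 2.19, 2.07 and 2.27. The groups again did not overlap, and the KD spread was narrower than at 24 h. On the log2(scaled RPKM + 0.1) scale, where changes of scarce transcripts come out too small, Klf4 was higher by 2.09 (SE 0.40, adjusted p = 0.0028, limma), a fold of 4.25, at 24 h. The difference at 72 h was 1.59 (SE 0.20, adjusted p = 1.1e-04), a fold of 3.00. Klf4 thus gave the largest fold change among the members tested at each time.

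The Klf4 difference at 24 h came out larger in the larger library cluster than in the smaller one, and no test compared the clusters. Within the larger cluster the log2 fold change was 2.81 (adjusted p = 1.7e-04, limma), and within the smaller cluster, where each group has 2 libraries, it was 0.60 (adjusted p = 0.33). At 72 h the corresponding differences were 1.78 (adjusted p = 3.7e-04) and 1.22 (adjusted p = 0.04996, just past the threshold). What the clusters stand for is not given in the labels, and their part in the result was not tested. Without the shallow KD 24 h replicate 6 the difference at 24 h was 1.86 (adjusted p = 0.0027).

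Klf6 (NM_011803), which is known to repress the preadipocyte factor Dlk1 during differentiation, followed Klf4 at a higher level. Its RPKM was 41.95, 30.44, 17.82, 14.46, 30.18 and 58.61 in KD 24 h, against 15.03, 17.14, 12.73, 13.78, 12.53 and 13.31 in NC 24 h. The groups overlapped in 1 KD library of the smaller cluster, replicate 4, which lay below 2 control libraries. At 72 h, KD ranged from 17.27 to 21.09 with a median of 19.20 and NC from 10.16 to 14.52 with a median of 13.33, and the groups did not overlap. The log2 difference was 0.98 at 24 h (SE 0.25, adjusted p = 0.011, limma), a fold of 1.98, and 0.36 at 72 h (SE 0.12, adjusted p = 0.045), a fold of 1.28. Within the larger and the smaller cluster it was 1.29 (adjusted p = 0.0018) and 0.33 (adjusted p = 0.34) at 24 h. At 72 h the within-cluster differences were 0.23 (adjusted p = 0.2) and 0.55 (adjusted p = 0.13), and the 72 h call held in 8 of 20 alternative settings.

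**Figure D1:**
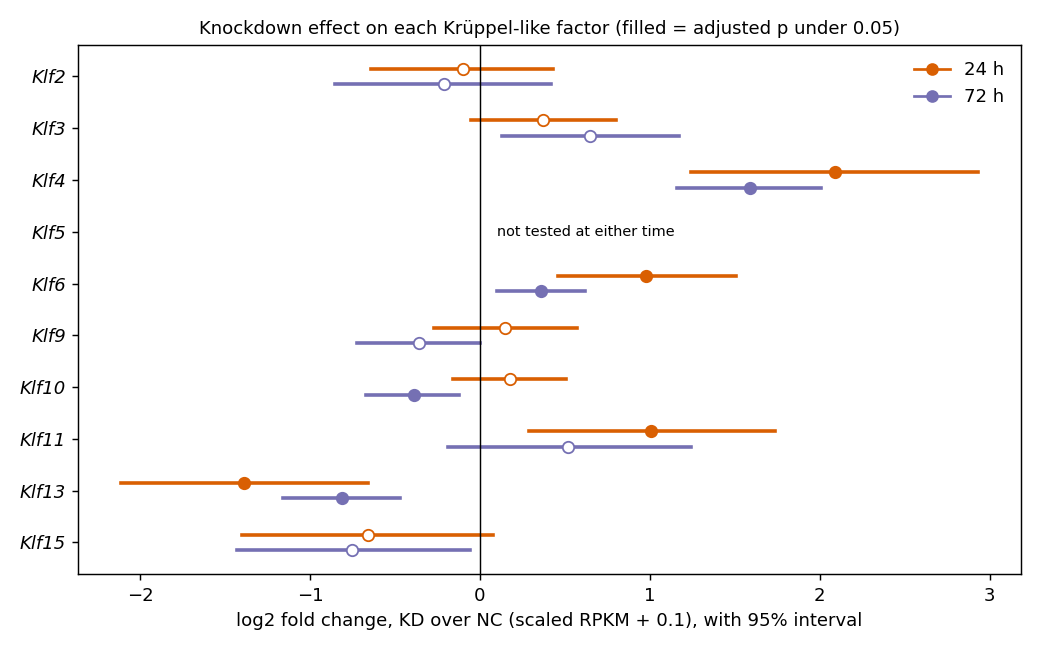
Log2 fold change of KD over NC for each member at 24 h (orange) and 72 h (violet), from limma on log2(scaled RPKM + 0.1), with the 95% interval as a line. Filled points have an adjusted p under 0.05 and open points do not. Klf4, Klf6 and Klf13 are filled at both times, with Klf4 at 2.09 and 1.59 and Klf13 at -1.39 and -0.81, and Klf5 was not tested at either time.

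Klf5 (NM_009769), which C/EBP factors induce and which activates Pparg early in differentiation, was scarce. In KD 24 h it had 5.37, 3.03, 1.87, 1.65, 2.86 and 0.42 RPKM, and in NC 24 h 0.76, 0.11, 0.17, 0.55, 0.68 and 1.19. In KD, 5 of 6 libraries lay above every control library, and the exception was the shallow replicate 6, where the value stood for 1 read. At 72 h KD gave 1.94, 1.24, 1.59, 1.28, 2.08 and 1.72 and NC gave 0.00, 0.48, 0.62, 0.45, 0.85 and 0.59, without overlap. The 0.00 in NC 72 h replicate 1 is a count of 0, which allows up to 3 reads. In deposited RPKM the KD mean was 2.53 ± 1.68 (SD, n = 6) against 0.578 ± 0.402 (n = 6) at 24 h, a ratio of 4.38 (two-sided exact permutation p = 0.011, adjusted over 3 such tests 0.016). At 72 h it was 1.64 ± 0.341 (n = 6) against 0.486 ± 0.310 (n = 5), a ratio of 3.38 (exact permutation p = 0.0043, adjusted 0.013). In limma without the filter on reads, where Klf5 could be fitted beside all other entries, the log2 difference was 1.85 at 24 h and 1.67 at 72 h and did not pass (adjusted p = 0.078 at each time). Within the smaller cluster it was 0.90 (adjusted p = 0.26) and 1.17 (adjusted p = 0.18). At 24 h it was 2.28 without KD 24 h replicate 6 and 2.53 without replicate 6 of both groups. In these fits and those of the smaller cluster, Klf5 passed the filter only through the KD libraries, where it is high. Small p-values from such fits are therefore not used. The Klf5 values rest on 114 and 26 reads at 24 h and 64 and 23 reads at 72 h, summed over each group. The entry is 1728 bases long and the GENCODE transcript of the gene 3352, so that reads from sequence outside the entry would not be counted in it.

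Klf2 (NM_008452), better known from endothelial cells and a repressor of Pparg in preadipocytes, showed no detectable difference. Its RPKM ranged from 1.96 to 4.75 in KD 24 h, with a median of 2.81, and from 1.93 to 4.78 in NC 24 h, with a median of 3.09. At 72 h the medians were 3.00 in KD and 2.60 in NC. All groups overlapped almost completely. The log2 difference was -0.10 at 24 h (95% interval -0.64 to 0.43, adjusted p = 0.79, limma) and -0.21 at 72 h (-0.85 to 0.42, adjusted p = 0.65). Endothelial markers were near the floor in all groups, with 0 of 6 genes tested and a summed RPKM of 0.192 to 3.31.

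Klf3 represents the branch of the family that recruits the corepressor CtBP, and it is known to silence Cebpa in preadipocytes. Its entry (NM_008453) had 7.35, 9.24, 5.85, 5.60, 6.06 and 6.83 RPKM in KD 24 h and 4.23, 5.82, 3.63, 4.03, 7.24 and 5.80 in NC 24 h. At 72 h KD had 7.68, 8.84, 5.30, 6.27, 6.08 and 9.02, and NC had 2.08, 3.10, 2.66, 5.43, 4.71 and 4.81. The groups overlapped at both times, at 72 h by KD replicate 3 and NC replicate 4 alone. The log2 difference was 0.37 at 24 h (SE 0.20, adjusted p = 0.19, limma) and 0.65 at 72 h (SE 0.24, adjusted p = 0.071), neither of them a call. In deposited, unscaled RPKM the 72 h difference was 0.89 and passed the test (adjusted p = 0.016), and it also passed within the larger cluster (0.94, adjusted p = 0.039) but not the smaller one (0.22, adjusted p = 0.7). The shorter Ensembl entry of the gene gave 1.27 at 72 h (adjusted p = 0.025). The RefSeq entry has 2314 bases and the GENCODE transcript 5221.

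Klf9, Klf10, Klf11 and Klf13 share a domain that binds the corepressor Sin3A. Klf13 (NM_021366) was the most abundant of the 10 in the control cells and the one member that fell at both times. In KD 24 h its RPKM was 21.33, 22.33, 24.00, 30.07, 25.67 and 5.28, and in NC 24 h it was 49.49, 45.66, 51.22, 49.41, 46.09 and 45.87. The lowest value belonged to the shallow KD 24 h replicate 6, yet every other KD library also lay well below every control library. In KD 72 h the values were 33.31, 46.33, 42.98, 45.55, 31.13 and 32.23, and in NC 72 h they were 51.37, 51.75, 49.49, 63.50, 67.45 and 50.81. The groups did not overlap at 72 h either, though the gap between them was small. Klf13 fell by 1.39 on the log2 scale at 24 h (SE 0.34, adjusted p = 0.011, limma), a level 2.61-fold lower. At 72 h it fell by 0.81 (SE 0.16, adjusted p = 0.0026), a level 1.76-fold lower.

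Klf13 was the only member with an adjusted p under 0.05 within both clusters at both times. This is a description, since the clusters were drawn from these same libraries. At 24 h the log2 difference was -1.72 in the larger cluster (adjusted p = 0.018, limma) and -0.76 in the smaller one (adjusted p = 0.033). At 72 h it was -0.50 (adjusted p = 0.022) and -1.37 (adjusted p = 7.3e-04), so the cluster with the larger fall was not the same at the 2 times. Without KD 24 h replicate 6 the level at 24 h was 2.00-fold lower (adjusted p = 1.0e-04). Of the 1088 reads that the entry of 6396 bases held per library on average, the short GenBank entry AK079127 of 1319 bases, listed under the same gene, held 1048. That entry gave differences of -1.38 and -0.83, and where both entries counted the same reads, these came from a short stretch of the gene.

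Klf11 (NM_178357), a TGF-beta-inducible factor that has been tied to the response of brite fat cells to rosiglitazone, was among the scarcest members. It had 2.40, 1.43, 0.86, 1.20, 0.93 and 3.43 RPKM in KD 24 h and 0.66, 0.51, 1.05, 0.96, 0.79 and 0.31 in NC 24 h. The groups overlapped, with 2 KD libraries below the 2 highest controls. The log2 difference of 1.01 (SE 0.34, adjusted p = 0.044, limma), a fold of 2.02, just passed the test, and it held in 9 of 19 alternative settings. Without KD 24 h replicate 6, the highest library, it was 0.81 (adjusted p = 0.075). At 72 h KD ranged from 0.45 to 1.00 and NC from 0.17 to 0.68, and the difference of 0.52 (SE 0.33, adjusted p = 0.28) was not a call.

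Klf10 (NM_013692), also known as TGF-beta-inducible early gene 1, was one of the most abundant members. In KD 24 h it ranged from 28.55 to 51.01 RPKM with a median of 41.33, and in NC 24 h from 30.63 to 45.22 with a median of 33.79. The groups overlapped, and the log2 difference was 0.18 (SE 0.16, adjusted p = 0.44, limma). At 72 h the values were 34.51, 46.55, 31.74, 32.89, 29.11 and 38.18 in KD and 36.61, 42.49, 43.72, 35.05, 41.19 and 38.40 in NC. KD replicate 2 was the highest of all of these and KD replicate 6 lay among the controls, while the other 4 KD libraries lay below every control. The log2 difference of -0.39 (SE 0.13, adjusted p = 0.043), a level 1.31-fold lower, passed the test on scaled values. On the deposited scale it was -0.14 (adjusted p = 0.41), because the scaling shifts the median of all entries at 72 h by 0.24 on the log2 scale. The call held in 8 of 20 alternative settings.

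Klf9 (NM_010638), a glucocorticoid- and thyroid-hormone-responsive factor that activates Pparg at the middle of adipogenesis, ranged from 7.13 to 18.06 RPKM in KD 24 h and from 6.83 to 12.39 in NC 24 h. At 72 h it ranged from 7.92 to 11.29 in KD and from 7.84 to 13.60 in NC. The groups overlapped at both times, and the log2 differences of 0.15 (95% interval -0.27 to 0.57, adjusted p = 0.61, limma) and -0.36 (-0.72 to 0.00, adjusted p = 0.14) were not calls. At 72 h the larger cluster gave -0.64 (adjusted p = 0.026) and the smaller one 0.08 (adjusted p = 0.87).

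Klf15 (NM_023184), which rises late in adipogenesis and acts on Slc2a4, was at 3.93, 1.55, 2.55, 1.08, 0.90 and 4.38 RPKM in KD 24 h and 3.99, 2.17, 3.53, 2.50, 3.95 and 3.15 in NC 24 h. In KD 72 h it was at 2.25, 1.07, 0.87, 1.18, 2.22 and 3.46, and in NC 72 h at 2.70, 2.16, 1.63, 1.68, 2.38 and 3.68. Means were lower in KD at both times, but the groups overlapped and the KD libraries spread at least as widely as the controls. The log2 differences were -0.66 at 24 h (SE 0.35, adjusted p = 0.18, limma) and -0.75 at 72 h (SE 0.32, adjusted p = 0.11). At 72 h the larger cluster gave -1.23 (adjusted p = 0.033) and the smaller one 0.14 (adjusted p = 0.88), and the Ensembl entry of the gene gave -0.88 over all libraries (adjusted p = 0.041).

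**Figure D2:**
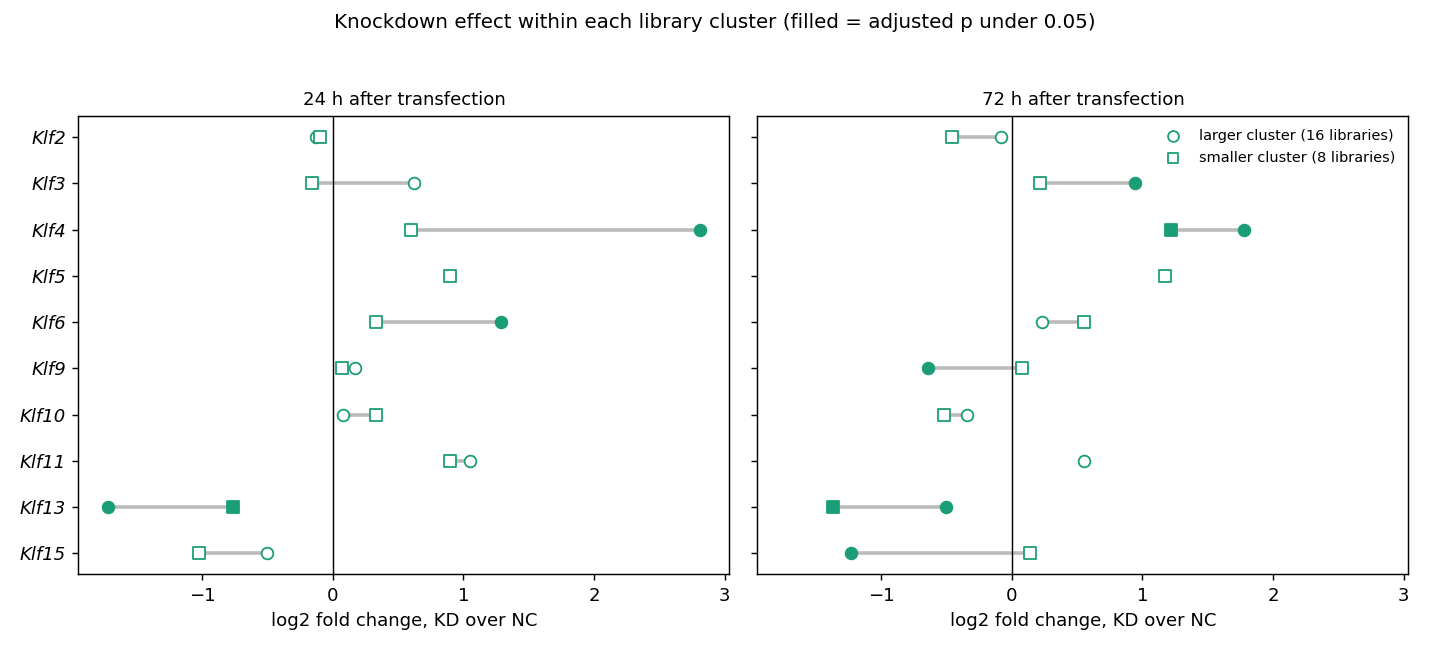
Log2 fold change of KD over NC for each member at 24 h (left) and 72 h (right), fitted within the larger cluster of 16 libraries (circles) and within the smaller cluster of 8 (squares), with a grey line joining both. Filled symbols have an adjusted p under 0.05 in limma, and a missing symbol means that the entry had too few reads. Klf13 is filled in both clusters at both times, while Klf4 at 24 h lies at 2.81 in the larger and 0.60 in the smaller cluster.

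Groups did not overlap in deposited RPKM for 2 of the 10 members at 24 h, Klf4 and Klf13, beside 11.1% of all entries tested. At 72 h they did not overlap for 4 members, Klf4, Klf5, Klf6 and Klf13, beside 17.2%. Klf5 is not among the tested entries that form these shares. Deposited values are unscaled, and at 72 h their median log2 fold change lies 0.24 above the scaled one, which favours separation of members higher in KD. The members were measured at very different depths, from a mean of 9.46 reads per library for Klf5 and 13.6 for Klf11 to 1088 for Klf13. Intervals were wide for scarce members. At 72 h that of Klf11 ran from -0.19 to 1.24 and that of Klf15 from -1.43 to -0.06, against 0.10 to 0.62 for Klf6.

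The control cells showed how the members stood during brite differentiation itself. In NC 24 h the order by mean RPKM was Klf13 at 48.0 ± 2.37 (SD, n = 6), Klf10 at 34.9 ± 5.29, Klf6 at 14.1 ± 1.74, Klf9 at 9.03 ± 1.91 and Klf3 at 5.13 ± 1.39. Klf2 at 3.22 ± 1.06, Klf15 at 3.22 ± 0.754, Klf4 at 2.05 ± 0.409, Klf11 at 0.714 ± 0.280 and Klf5 at 0.578 ± 0.402 followed. The ranges of Klf13, Klf10 and Klf6 lay apart from those of their neighbours in this order, and so did the range of Klf4 from that of Klf11. The neighbours from Klf9 down to Klf4 overlapped in turn, and so did Klf11 and Klf5. RPKM divides by the whole length of an entry although 3′ ends were sequenced, so the order among genes also depends on the length of each entry.

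The order was not the same in the knockdown cells at 24 h. There, Klf10 stood first at 41.3 ± 7.78 (SD, n = 6), Klf6 second at 32.2 ± 16.3, then Klf13 at 21.4 ± 8.50 and Klf4 at 11.6 ± 7.44, with overlapping ranges between each pair of neighbours. By 72 h Klf13 was again first in KD, at 38.6 ± 7.09, overlapping Klf10 at 35.5 ± 6.20. In NC 72 h Klf13 was at 56.8 ± 8.09 (n = 5) and Klf10 at 38.9 ± 3.29, with their ranges apart.

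In the control cells no member passed over time. Between NC 24 h and NC 72 h, 0 of 9 members tested passed in limma, 1 (Klf13) had an unadjusted p under 0.05, and voom on the recovered reads also called 0. Over all 52835 entries tested, 9.12% were called (4.63% higher and the rest lower), and for 7.39% the groups did not overlap, against 0 of the 10 members, so that shares this low over all entries leave few calls to be found among 9. Klf13 changed by 0.26 (SE 0.09, adjusted p = 0.11), and Klf4 by 0.03 (95% interval -0.40 to 0.46, adjusted p = 0.95). Klf11 was at -0.60 (95% interval -1.37 to 0.16) and Klf15 at -0.36 (-0.88 to 0.16), intervals that hold sizeable changes. The other differences were -0.37 for Klf3, 0.25 for Klf9, 0.19 for Klf10, -0.14 for Klf6 and -0.09 for Klf2. Klf5, tested by exact permutation, had a ratio of 0.841 (p = 0.66).

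In the knockdown cells, Klf11 alone passed between 24 h and 72 h, 1 of 10 members beside 9.83% of 53198 entries (5.01% higher and the rest lower). Of those calls, 51.0% were higher after scaling and 80.9% on the deposited scale. It fell by 1.11 on the log2 scale (SE 0.31, adjusted p = 0.036, limma), from 1.71 ± 1.01 to 0.748 ± 0.202 RPKM (SD, n = 6 each). The groups overlapped, and without KD 24 h replicate 6 the value was -0.91 (adjusted p = 0.053). The call held in 7 of 19 alternative settings, and within the larger and the smaller cluster the values were -1.24 (adjusted p = 0.06) and -0.85 (adjusted p = 0.33). Klf6 fell from 32.2 to 19.1 RPKM on average, at -0.77 (SE 0.24, adjusted p = 0.059), and did not pass, although within the larger cluster it did (-1.12, adjusted p = 0.0041). Klf13 had a difference of 0.83 (SE 0.36, adjusted p = 0.17), and it was the 1 member whose groups did not overlap, beside 8.27% of all entries. Klf4 gave -0.48 (SE 0.40, adjusted p = 0.5), and it fell within the larger cluster (-0.98, adjusted p = 0.023) while the value in the smaller one was 0.54 (adjusted p = 0.32). Klf10 was at -0.38 (unadjusted p = 0.042, adjusted p = 0.18). The remaining differences were -0.47 for Klf5, -0.45 for Klf15, -0.26 for Klf9, -0.20 for Klf2 and -0.10 for Klf3.

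The difference between the knockdown effects at 72 h and 24 h was tested by an interaction term. None of the 10 members passed in limma (0 calls, and 0 with voom), beside 0.200% of 59413 entries (0.126% higher and the rest lower), and 2 had an unadjusted p under 0.05, Klf10 and Klf6. Klf10 gave -0.56 (SE 0.21, adjusted p = 0.29) and Klf6 -0.61 (SE 0.29, adjusted p = 0.41). Within the larger cluster the Klf6 term passed (-1.07, adjusted p = 0.037), and within the smaller one it was 0.22 (adjusted p = 0.73). For Klf4 the value was -0.49 (95% interval -1.48 to 0.49) and for Klf13 it was 0.58 (-0.28 to 1.45). Klf9 was at -0.50, Klf11 at -0.49, Klf3 at 0.29, Klf5 at -0.20, Klf2 at -0.10 and Klf15 at -0.07. Over all libraries, the smaller fold changes of Klf4, Klf6 and Klf13 at 72 h were therefore not shown to differ from those at 24 h. Of the interaction calls over all entries, 63.0% were higher after scaling and 96.1% on the deposited scale.

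Across the 23 samples, Klf4 and Klf6 varied together (Pearson r = 0.84 on the log2 scale) and Klf13 ran against both (r = -0.80 with Klf4 and -0.88 with Klf6). These values describe libraries that share groups, clusters and depth. Of 5705 genes with a mean of at least 50 reads, those most like Klf4 were Hsp90ab1 (r = 0.95) and Psmd2 (r = 0.93), and the least like was Mrps9 (r = -0.97). For Klf6 they were Psmb4 (r = 0.97) and Ptbp3 (r = 0.95), with Map1b at the other end (r = -0.96). For Klf13 they were Septin11 (NM_001009818, r = 0.97) and Vmp1 (r = 0.96), with Setd2 at the other end (r = -0.92).

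Most further genes of the KLF and SP family were too scarce to test. Of 16 such genes, 5 had enough reads, and at 24 h 1 rose and 1 fell. Among all entries tested, 22.7% were called at 24 h and 22.3% at 72 h. Klf7, a repressor of adipogenesis in cultured preadipocytes, was the one lower, by 1.35 in limma (SE 0.34), from a mean of 2.97 RPKM in NC to 1.26 in KD. Klf7 had a mean of 14.3 reads per library. It entered the 24 h fit with the help of the control libraries, where it is high, so its p-value there is not used. Sp3, a widely expressed GC-box-binding factor, rose by 0.44 (SE 0.15, adjusted p = 0.044). Sp1 (-0.14), Sp2 (-0.07) and Klf16 (0.00) did not pass. At 72 h 0 of the 5 passed, with Klf7 at -0.44 (adjusted p = 0.33), Klf16 at 0.50, Sp1 at -0.09, Sp2 at 0.02 and Sp3 at 0.02. The other genes of this list were at or near 0, and Klf17, Sp5 and Sp7 were at 0 in all 24 libraries.

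KLFs act through corepressors, and 8 of 8 corepressor genes were tested. At 24 h, 1 of them fell and 0 rose, with a median of 0.13 on the log2 scale. The one that fell was Ctbp2, at -0.73 (SE 0.24, adjusted p = 0.04, limma), which is named here because of its value. At 72 h 0 of the 8 passed, and the median was 0.12. The share of all entries called was 22.7% at 24 h (11.1% higher and the rest lower) and 22.3% at 72 h.

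Among 8 genes on which KLFs are known to act in fat cells, 4 fell and 1 rose at 24 h, with a median of -0.50. At 72 h, 4 of 7 tested fell and 0 rose, with a median of -0.43, against 0.01 over all entries. Calls over all entries were 22.7% at 24 h (11.1% higher and the rest lower) and 22.3% at 72 h (10.3% higher and the rest lower). Ucp1, the uncoupling protein of heat-producing fat cells, fell by 1.15 at 24 h (SE 0.24, adjusted p = 0.0049, limma) and by 2.37 at 72 h (SE 0.21, adjusted p = 8.2e-06). Slc2a4 fell by 1.59 (SE 0.32, adjusted p = 0.0037) and 1.77 (SE 0.18, adjusted p = 2.2e-05). The others that passed, named for their values, were Cebpa (-0.57 at both times), Pparg (-0.44) at 24 h, Cebpb (-0.43) at 72 h, and Pdgfa, which rose by 0.83 at 24 h. Dlk1 was at -0.04 at 24 h (adjusted p = 0.95) and had too few reads at 72 h.

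**Figure D3:**
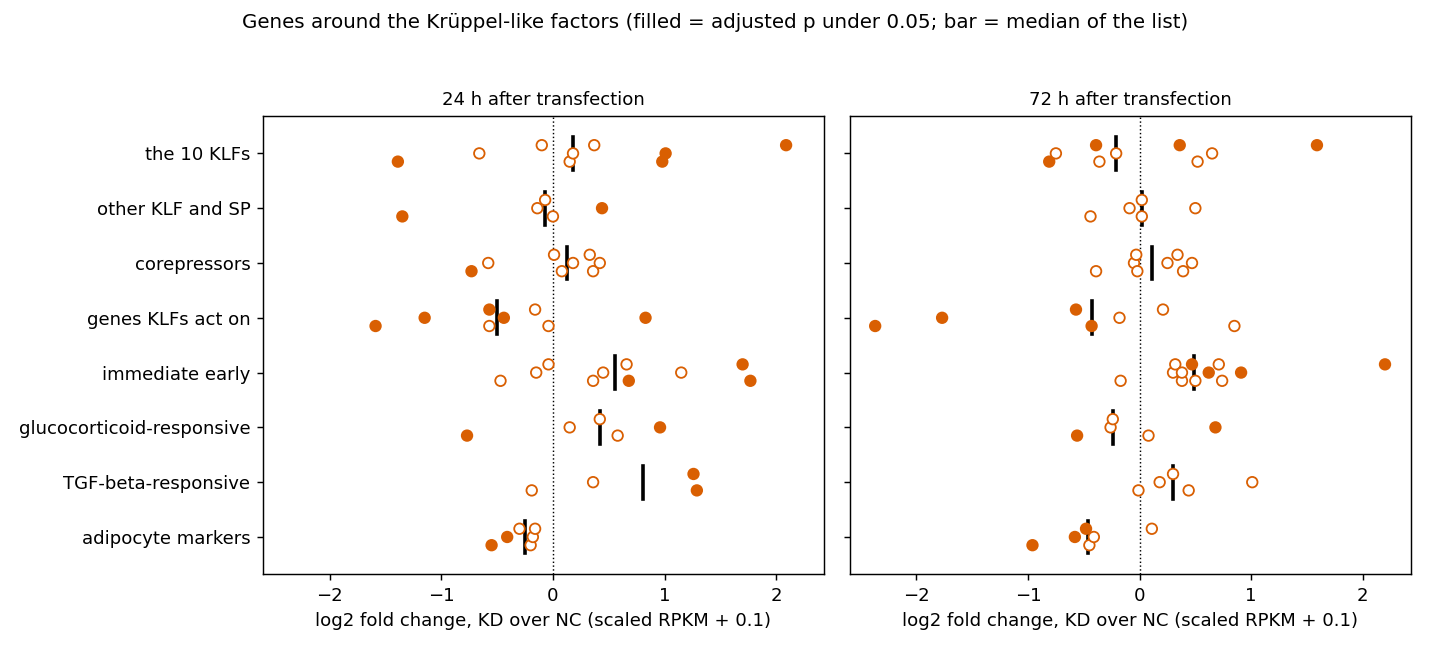
Log2 fold change of KD over NC at 24 h (left) and 72 h (right) for the tested genes of 8 lists, 1 point per gene. Filled points have an adjusted p under 0.05 in limma, and the black bar is the median of the tested genes. The KLFs (9 of 10 tested) spread to both sides of 0, and the list of genes KLFs act on has its median at -0.50 and -0.43.

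Several KLFs are immediate early, glucocorticoid-responsive or TGF-beta-responsive genes, and other genes of these kinds were counted beside them. For each count, the share of all entries called was 22.7% at 24 h (11.1% higher and the rest lower). At 72 h this share was 22.3% (10.3% higher and the rest lower). Immediate early genes rose in 3 of 10 tested at 24 h (median 0.56) and 4 of 12 at 72 h (median 0.48), with 0 falling at either time. Atf3 (mean 18.3 reads per library) and Nr4a1 (9.67) were too scarce in the control libraries for the fit over time in NC. Atf3 at both times and Nr4a1 at 72 h entered with the help of the KD libraries, where they were higher. Such entries favour rises in these counts and medians. Myc rose by 0.68 at 24 h (adjusted p = 0.025, limma) and by 0.62 at 72 h (adjusted p = 0.0017), and Nr4a1 was higher by 2.20 at 72 h. The others that passed, named for their values, were Jun (1.77) and Atf3 (1.70) at 24 h, and Atf3 (0.91) and Fos (0.47) at 72 h. Glucocorticoid-responsive genes gave 1 rise and 1 fall of 5 at each time. Sgk1 was higher by 0.96 and 0.68, while Tsc22d3 was lower, at -0.77 and -0.56. TGF-beta-responsive genes rose in 2 of 4 at 24 h (median 0.81), namely Smad7 (1.29) and Ctgf (1.26), named for their values, and in 0 of 5 at 72 h (median 0.30).

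Markers of other cells were read in the same libraries. Beside the counts below, 22.7% of all entries were called at 24 h (11.1% higher and the rest lower). At 72 h 22.3% were called (10.3% higher and the rest lower). Adipocyte markers fell in 2 of 6 at 24 h (median -0.25) and 3 of 6 at 72 h (median -0.46), with Adipoq at -0.96 and Fabp4 at -0.58 at 72 h. Preadipocyte and fibroblast markers passed in 0 of 5 at 24 h and 1 of 4 at 72 h, where Cd34 was higher by 2.02 in limma. Cd34 had a mean of 10.8 reads per library and did not enter the fit over time in NC. It entered the 72 h fit with the help of the KD libraries, where it is high, so its p-value is not used. The summed RPKM of the preadipocyte and fibroblast list was 364 to 838 in KD 24 h and 401 to 983 in NC 24 h. At 72 h this sum was 782 to 936 in KD and 357 to 936 in NC. Of 6 macrophage and leukocyte markers, 3 were tested, with Csf1r higher by 1.23 and Lyz2 at -3.68 at 72 h. Lyz2 did not enter the fit over time in KD, and its 72 h test drew on the control libraries, where it is high. The defining marker Ptprc was at 0 in 16 of 24 libraries. The 6 together summed to 3.15 to 19.1 RPKM in KD 24 h, 6.00 to 27.9 in NC 24 h, 7.28 to 15.3 in KD 72 h and 9.34 to 29.8 in NC 72 h.

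Krt19 was the 1 tested gene of 6 epithelial markers, and it was higher by 1.06 at 24 h (SE 0.25, adjusted p = 0.0092, limma) and 2.54 at 72 h (SE 0.16, adjusted p = 5.7e-07). The summed RPKM of the epithelial list was 17.9 to 25.4 in NC 24 h, 22.9 to 76.5 in KD 24 h, 17.8 to 26.6 in NC 72 h and 119 to 172 in KD 72 h. The defining epithelial markers Epcam and Cdh1 were each at 0 in 23 of 24 libraries, with means of at most 0.0346 RPKM in any group. Klf4 and Klf5, which epithelial cells also express, were higher in KD than in NC, as Krt19 was. From KD 24 h to KD 72 h, however, Krt19 rose by 1.54 (adjusted p = 0.002, limma), while Klf4 was at -0.48 and Klf5 at -0.47, neither a call. The part of other cells in the levels of Klf4 and Klf5 was not tested.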

How the data were processed

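RNA of 24 libraries was measured by BRB-seq, a method that barcodes cDNA by oligo-dT priming and reads 3′ ends. According to the methods, the authors aligned the reads to RefSeq transcripts with the Genomatix suite. Versions, genome build, filters and the use of strand are not given in the sources used here. The authors deposited RPKM for 168326 RefSeq, GenBank and Ensembl entries so 1 read can enter several entries of a gene. Reads and depth were recovered from the RPKM steps, and 94.2% to 94.8% of low values per library were whole within 0.05 reads.

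Entries with the equivalent of 10 reads in at least n samples (n being the size of the smaller group), and 15 in total, entered limma 3.58.1 (R 4.3.3, trend) on log2(RPKM + 0.1), after scaling by a trimmed mean of log ratios (30% and 5% trimmed). Benjamini-Hochberg adjustment covered all entries, and a call is an adjusted p under 0.05. The study itself used DESeq2, a count test that is not the main test for RPKM. Exact permutation tests (scipy 1.17.1) were used for Klf5. Groups came from sample titles. All 10 members were named in every comparison, every tested gene of the further KLF and SP family, and from other lists at most 2 genes per direction with the smallest p at 72 h, beside further genes that passed and are marked as named for their values; the genes most like a member are given for those called at both times. The members and lists were chosen with earlier results of these data known. A gene of the TGF-beta list is not reported here and was left out of its counts. Alternatives covered scaling, pseudocount, filter, entries, the replicate block, voom on recovered reads, a joint fit, left-out libraries and the clusters. On simulated reads, limma called 65.0% of 2-fold changes at 24 h and 67.0% at 72 h, and 98.0% and 97.0% of 3-fold changes. The simulation had a fixed spread, no clusters and no scarce entries among those changed. It therefore does not show how often changes of the scarce members are missed. Protein sequences were not used here.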

Additional observations from a re-analysis of the deposited data

Results flagged for a closer look

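In 40 groups of libraries (10 genes in 4 groups), 2 held a library far from the others, and chance flags about 1 in 20 groups. Klf13 in KD 24 h replicate 6 was lowest at 5.28 RPKM, with the nearest library at 21.33. That library had the lowest depth, 1391832 mapped reads. Klf10 in NC 24 h replicate 3 was highest at 45.22 RPKM, with the nearest library at 34.57.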

How the results depend on the processing

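Of 927 values of single members under alternative settings, 814 kept their direction and their side of the threshold, 49 lost the call, 19 gained one and 45 changed sign, and the cause was not tested. Klf13 at 24 h passed in 19 of 19 settings and Klf4 at 72 h in 20 of 20. Klf4 at 24 h failed in the smaller cluster, and Klf13 at 72 h (-0.82, adjusted p = 0.059, limma) in the fit of all groups, each 1 setting.

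Called members numbered 4 at 24 h and 1 in the smaller cluster, which has fewer libraries. At 72 h, 4 became 2 without a filter, with the replicate block, with all groups in 1 fit and in the smaller cluster. The 1 call over time in KD, Klf11, became 0 on the deposited scale, without a filter and with the replicate block. With all groups in 1 fit and with RefSeq entries only there were 2, Klf11 and Klf6. Klf11 was lost in the larger cluster, where the 2 calls were Klf4 and Klf6, and without KD 24 h replicate 6 (chosen after seeing the data), where they were Klf5 and Klf10. With voom Klf6 passed in place of Klf11, and in the smaller cluster Klf10. The interaction gave 1 in the larger cluster, Klf6. Leaving out 1 replicate number at a time gave 3 to 4 at 24 h, 2 to 3 at 72 h, 0 to 1 over time in KD, and 0 otherwise. Over all entries, calls fell from 4818 to 2898 (NC over time) and from 119 to 28 (interaction) with the block, and from 11821 to 1563, 12158 to 5763 and 4818 to 1742 (24 h, 72 h, NC over time) in the smaller cluster. The interaction rose from 119 to 860 in the larger and 1832 in the smaller cluster, although each holds fewer libraries. Calls within a cluster are therefore read as description. Testing 1 entry per gene or RefSeq entries only, which leaves fewer entries, gave 2613 and 3661 at 24 h, 2807 and 3552 at 72 h, 1072 and 1411 over time in NC, 1259 and 1631 (of 5229) over time in KD, and 45 and 51 for the interaction.

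Replicate numbers did not pair the libraries (mean correlation of deviations -0.10 at 24 h and 0.05 at 72 h). With the block, Klf11 at 24 h and Klf6 and Klf10 at 72 h lost their calls (adjusted p = 0.11, 0.13 and 0.089).

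Sign changes were as follows. On the deposited scale, where 80.9% of the 72 h calls were higher against 46.2% after scaling, Klf2 at 72 h was 0.03, Klf3 over time in KD 0.07, and the interactions of Klf2 and Klf15 were 0.08 and 0.10. In the smaller cluster, Klf3 at 24 h was -0.16, Klf9 and Klf15 at 72 h were 0.08 and 0.14, and over time in KD Klf3 was 0.00, Klf4 0.54, Klf9 0.19, Klf13 -0.13 and Klf15 0.35. The interactions there were 0.61 (Klf4), 0.26 (Klf5), 0.22 (Klf6), 0.01 (Klf9), -0.62 (Klf13) and 1.16 (Klf15), and Klf2 in the larger cluster was 0.04. Klf4 over time in NC was -0.04 with the block, -0.03 with voom, -0.08 in the smaller cluster, -0.01 with NC 72 h replicates 2 and 3 separate and -0.02 without NC 72 h replicate 6. Voom gave interactions of 0.02 (Klf2) and 0.07 (Klf15), Klf15 was 0.08 without NC 72 h replicate 6, and without KD 24 h replicate 6 they were 0.00 (Klf2) and 0.11 (Klf15). The GenBank entry of Klf9 (chosen after seeing the data) gave -0.02 at 24 h and 0.02 over time in KD. Leaving out 1 replicate number, Klf2 ran from -0.34 to 0.08 and Klf9 from -0.06 to 0.32 at 24 h. Over time in NC, Klf2 ran from -0.32 to 0.16 and Klf4 from -0.05 to 0.09, and the interactions of Klf2, Klf5 and Klf15 ran from -0.31 to 0.18, -0.73 to 0.24 and -0.43 to 0.11. Ensembl entries were tried for Klf3 and Klf15 only, the members that have one.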
